A study of Oryza sativa with 10 samples.

Results

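The genes described here are 10 rice loci listed as secreted class III peroxidases, which lie in 3 tandem groups on chromosome 1. They were chosen by their locus IDs, and 9 of the 10 have a row in the table of transcript levels, against 2282 genes with a complete row. The rows used cover chromosome 1 up to position 21262392. Shares and medians of all tested genes below, and the rescaling, refer to this part of the genome. LOC_Os01g18970 is not analysed here. RNA-seq was carried out on seedlings of the indica cultivar YD6. The 0 h group was germinated in darkness for 3 d, and the 8 h and 24 h groups were then kept under light for that time. The ABA and IAA groups were sprayed with 100 μM abscisic acid (ABA) or 100 μM indole-3-acetic acid (IAA), both in 1% DMSO, for 30 min, ending at 24 h of light. Each of the 5 conditions had 2 biological replicates, or 10 libraries in all, and every seedling had passed through the 3 d of darkness. A spray with DMSO alone is also described in the methods, and the labels do not state whether the 24 h libraries received it, so an effect of the solvent cannot be told apart from that of either hormone in the comparisons with 24 h. GLK2 (LOC_Os01g13740), a regulator of chloroplast development, was present in every library, at 20.2 to 36.3 FPKM, and other markers of seedling tissue were not examined.

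Class III peroxidases are heme enzymes of plants that are secreted to the cell wall and the vacuole. They reduce hydrogen peroxide with phenolic compounds as electron donors, which joins monolignols into lignin and cross-links wall proteins and polysaccharides, and through another catalytic cycle they can also produce oxygen radicals that cleave wall polymers. They are therefore known for both stiffening and loosening of the wall in growing tissue, and members of the family can oxidize IAA in vitro. In grasses the family is large and many of its genes stand in tandem arrays. The role of each single locus below is not known from the sources used here, so the genes are described by their position.

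The first group holds LOC_Os01g15810 (minus strand, 8903333 to 8905428) and LOC_Os01g15830 (plus strand, 8917547 to 8919971), with the coordinates of the MSU7.0 gene models as deposited. They point away from each other across 12118 bp, and no other row of the table lies between them. In the second group, LOC_Os01g18950 (minus strand, 10713139 to 10714271) and LOC_Os01g19020 (minus strand, 10748603 to 10750234) are 34331 bp apart. The 2 other genes between them were listed at 0 in every library or, for LOC_Os01g19000, reached at most 0.0067 FPKM. The third group has 5 genes, all on the plus strand, within 82379 bp. These are LOC_Os01g22230 (12499923 to 12504215), LOC_Os01g22249 (12509592 to 12519255), LOC_Os01g22336 (12551333 to 12557013), LOC_Os01g22352 (12564283 to 12570032) and LOC_Os01g22370 (12578189 to 12582301). Another 5 genes of the table lie inside this span, all between LOC_Os01g22249 and LOC_Os01g22336, and all 5 were listed at 0 in every library. No member overlaps another row of the table. Reads that match more than 1 tandem copy could have been divided between the copies when FPKM was calculated, and this was not tested.

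Within each group the copies were present at very different levels. FPKM is the number of fragments per kilobase of transcript relative to all fragments of the library, so levels can be compared between genes. Averaged over the 10 libraries, LOC_Os01g19020 had the highest level of the members, 126.7 FPKM, above 97.2% of the 1092 genes tested, while its neighbour LOC_Os01g18950 was listed at 0 in all 10 libraries. LOC_Os01g15830 followed with a mean of 35.9 FPKM, above 85.3% of the genes tested, and its neighbour LOC_Os01g15810 had a mean of 0.163 FPKM. In the third group the means were 20.3 FPKM for LOC_Os01g22370, 13.0 FPKM for LOC_Os01g22230 and 8.79 FPKM for LOC_Os01g22352. The other copies of this group, LOC_Os01g22336 and LOC_Os01g22249, had means of 0.831 and 0.303 FPKM. Of the 9 members, 5 had a mean of at least 1 FPKM and entered the tests, and the other 4 are described by their values alone.

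**Figure D1:**
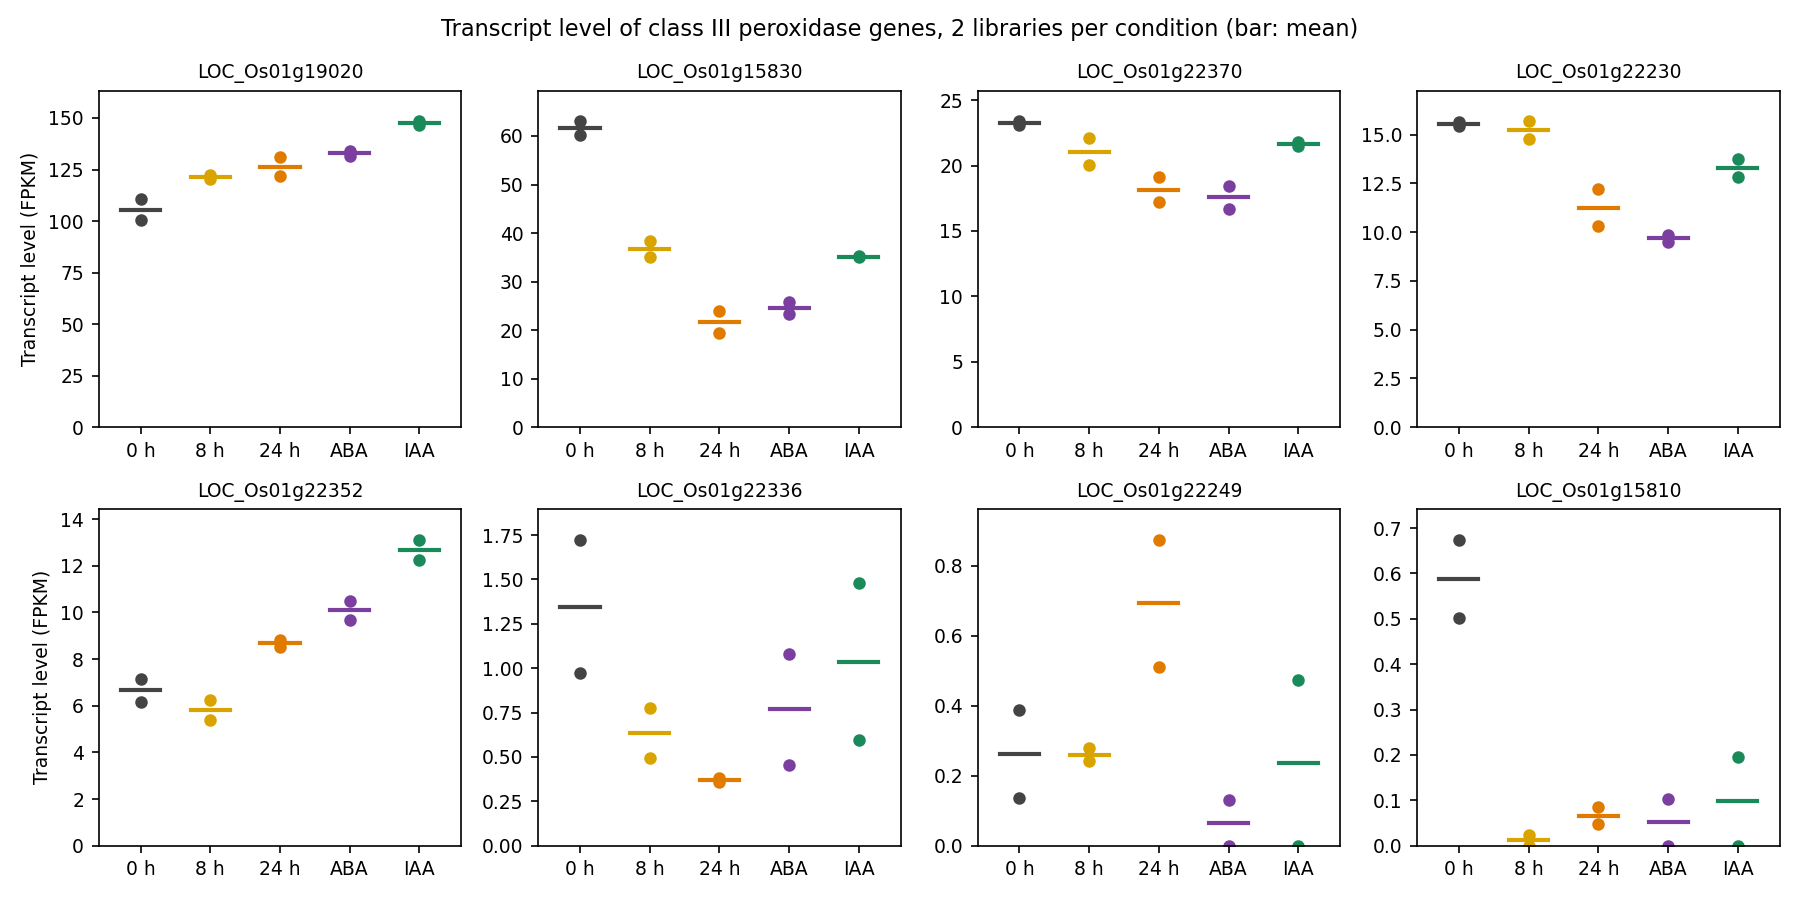
Transcript level in FPKM (vertical axis, linear, from 0, with its own scale for each gene) of the 8 peroxidase genes above 0 in any library, by condition (horizontal axis). Each point is a library and each bar is the mean of 2 libraries. LOC_Os01g15830 lay at 60.1 to 63.1 FPKM at 0 h and at 19.3 to 24.0 FPKM at 24 h, while LOC_Os01g19020 and LOC_Os01g22352 had their highest values with IAA.

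The 9 members summed to 214.8 ± 10.6 FPKM in darkness (SD, n = 2), to 201.0 ± 4.88 after 8 h of light and to 187.2 ± 12.7 after 24 h. The sum was 195.6 ± 4.72 FPKM with ABA and 231.6 ± 2.33 FPKM with IAA (SD, n = 2 for each). The share of LOC_Os01g19020 in this sum was 49.1% ± 0.973 in darkness and 67.5% ± 1.07 after 24 h of light (SD, n = 2 for each). That of LOC_Os01g15830 was 28.7% ± 0.450 in darkness and 11.5% ± 0.994 after 24 h (SD, n = 2 for each). The 5 genes of the third group together held between 19.3% and 22.3% in every library. These shares are set within a library, so the scaling between libraries does not enter them.

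**Figure D2:**
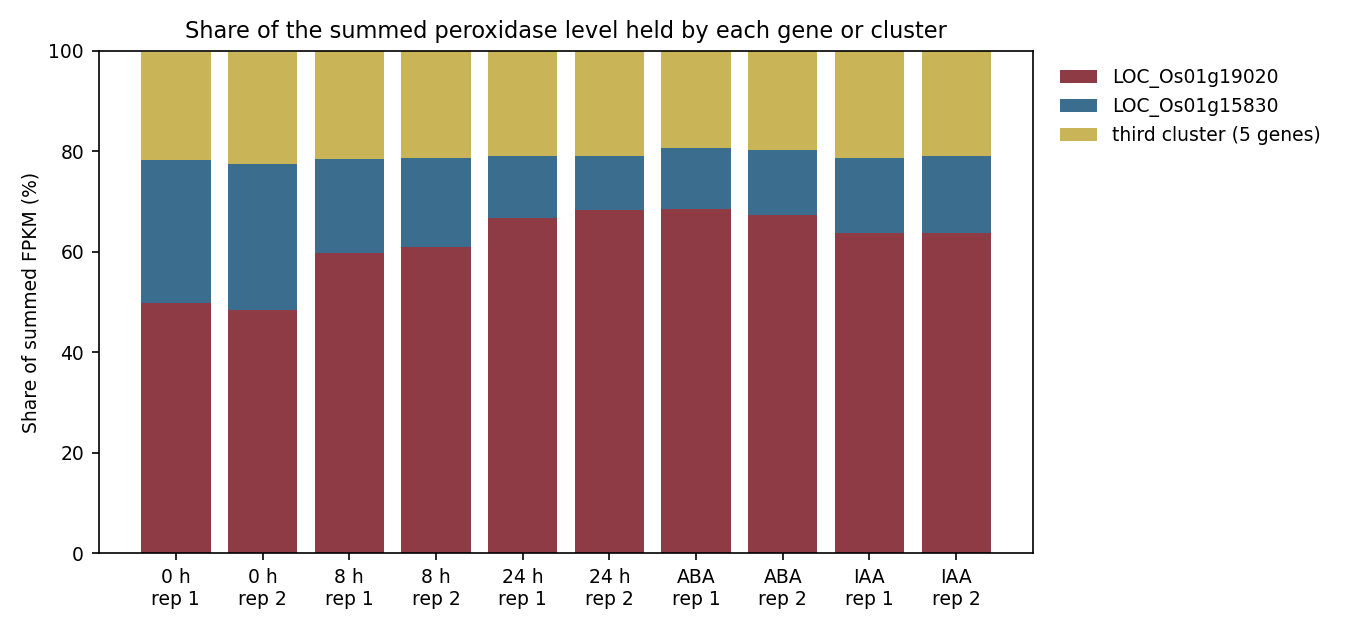
Share of the summed FPKM of the 9 peroxidase genes (vertical axis, percent) held by LOC_Os01g19020, LOC_Os01g15830 and the 5 genes of the third group, in each of the 10 libraries (horizontal axis). LOC_Os01g15810 held at most 0.303% and is not drawn, and LOC_Os01g18950 was listed at 0. The third group stayed at 19.3% to 22.3%, while the share of LOC_Os01g15830 ran from 29.0% at 0 h to 10.8% at 24 h.

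For the tests, all 10 libraries were fitted together with limma on log2(FPKM + 1). Below, a gene "passed" at a Benjamini-Hochberg adjusted p-value under 0.01 and was "called" when its change was also 2-fold or more on this scale. The median of all 1092 tested genes moved by -0.18 (log2) at 8 h against 0 h, by -0.18 at 24 h against 8 h, by -0.38 at 24 h against 0 h, by -0.10 with ABA, by 0.13 with IAA and by 0.21 between IAA and ABA. The scaling between libraries therefore bears on every change below, and changes are also given after rescaling of the libraries by the median of their ratios to the typical library, which sets the typical gene to no change. The depth of the libraries is unknown, since the values are already relative to their totals.

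LOC_Os01g15830, the tested copy of the first group, fell at each step of the light treatment. Its level was 63.1 and 60.1 FPKM in the replicates at 0 h, 38.3 and 35.1 FPKM at 8 h, and 24.0 and 19.3 FPKM at 24 h. The 3 time points did not overlap. In these bulk samples, fewer cells of a type and less RNA per cell cannot be told apart. From 0 to 24 h the level fell 2.84-fold between the means, with a log2 change of -1.47 (standard error 0.091, limma adjusted p = 2.37e-08), and this was the member called in that comparison. Of the 5 members tested, 1 was thus called at 24 h against 0 h, beside 15.5% of all tested genes. The size of its change exceeded that of 94.7% of the tested genes in that comparison. Set against the median change over all genes, its change was -1.09, and after rescaling it was -1.06 (limma adjusted p = 2.94e-07). The fall from 0 to 8 h, with a log2 change of -0.73 (standard error 0.091, limma adjusted p = 2.39e-05), and that from 8 to 24 h, with a log2 change of -0.74 (standard error 0.091, limma adjusted p = 2.14e-05), were of nearly the same size, and each was below 2-fold. After rescaling these steps were -0.51 (limma adjusted p = 2.93e-04) and -0.55 (limma adjusted p = 1.63e-04). Leaving out any single library of 0 or 24 h gave changes from -1.62 to -1.32.

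LOC_Os01g19020, the tested copy of the second group, rose by a smaller amount over the same time. Its level was 110.7 and 100.4 FPKM at 0 h, 122.2 and 120.4 FPKM at 8 h, and 131.0 and 121.7 FPKM at 24 h. The libraries at 0 h were the lowest, and those at 8 and 24 h overlapped. The log2 change from 0 to 24 h was 0.26 (standard error 0.060, limma adjusted p = 1.72e-03), or 1.20-fold between the means, and it was 0.67 after rescaling (limma adjusted p = 2.91e-07). Without 0 h replicate 2, the change as deposited was 0.19 and did not pass (limma adjusted p = 2.67e-02). Over the first 8 h it changed by 0.20 (standard error 0.060, limma adjusted p = 1.17e-02), which did not pass as deposited. It was 0.42 after rescaling (limma adjusted p = 2.73e-05) and 0.27 without 0 h replicate 1 (limma adjusted p = 6.64e-03). Between 8 and 24 h the change was 0.06 (standard error 0.060, limma adjusted p = 4.44e-01), and 0.25 after rescaling (limma adjusted p = 2.08e-03). The level of LOC_Os01g19020 was 1.67 to 1.76 times that of LOC_Os01g15830 at 0 h and 5.45 to 6.30 times at 24 h.

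In the third group, 3 copies entered the tests. As deposited, LOC_Os01g22352 rose from 0 to 24 h while LOC_Os01g22230 and LOC_Os01g22370 fell. After rescaling these falls did not pass and that of LOC_Os01g22370 turned. Over the 3 light stages alone, the ratios between these copies did not pass an exact permutation test (p = 0.0667 to 0.200), in which the smallest possible p-value is 0.0667. LOC_Os01g22352 was at 7.15 and 6.16 FPKM at 0 h, 5.38 and 6.26 FPKM at 8 h, and 8.52 and 8.84 FPKM at 24 h. It was highest at 24 h, and its libraries at 0 and 8 h overlapped. It rose from 8 to 24 h with a log2 change of 0.51 (standard error 0.095, limma adjusted p = 6.60e-04), and 0.68 after rescaling (limma adjusted p = 8.75e-05). Without 8 h replicate 1, the change as deposited was 0.42 (limma adjusted p = 1.12e-02). From 0 to 24 h its change was 0.34 (standard error 0.095, limma adjusted p = 5.72e-03), and 0.71 after rescaling (limma adjusted p = 4.35e-05). At 8 h against 0 h its change was -0.17 as deposited (limma adjusted p = 1.46e-01) and 0.03 after rescaling (limma adjusted p = 8.15e-01). The change from 0 to 24 h as deposited did not pass without 0 h replicate 2 (0.25), without 24 h replicate 1 (0.37) or without 24 h replicate 2 (0.32), with adjusted p-values of 6.59e-02, 1.11e-02 and 2.27e-02 from limma.

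LOC_Os01g22230 was at 15.4 and 15.7 FPKM at 0 h, 15.7 and 14.8 FPKM at 8 h, and 12.2 and 10.3 FPKM at 24 h. The libraries at 0 and 8 h overlapped, and both at 24 h were lower. At 8 h against 0 h the log2 change was -0.03 as deposited (limma adjusted p = 7.90e-01) and 0.18 after rescaling (limma adjusted p = 7.98e-02). Between 8 and 24 h its log2 change was -0.41 (standard error 0.084, limma adjusted p = 1.31e-03), against -0.23 after rescaling, which did not pass (limma adjusted p = 3.47e-02). Without 8 h replicate 1 it was -0.37 (limma adjusted p = 1.69e-02). Over the whole 24 h it was -0.44 (standard error 0.084, limma adjusted p = 4.65e-04) as deposited and -0.05 after rescaling (limma adjusted p = 6.37e-01), and set against the median change over all genes it was -0.06.

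LOC_Os01g22370 had the highest level of the third group at every time point. It was at 23.4 and 23.1 FPKM at 0 h, 22.1 and 20.0 FPKM at 8 h, and 19.1 and 17.2 FPKM at 24 h, with no overlap between the time points. From 0 to 24 h the log2 change was -0.34 (standard error 0.076, limma adjusted p = 1.32e-03) as deposited, but 0.06 after rescaling (limma adjusted p = 5.16e-01), so its direction turned with the scaling. As deposited it did not pass without 0 h replicate 1 (-0.33, limma adjusted p = 1.09e-02). Neither step passed, with -0.14 at 8 h against 0 h (limma adjusted p = 1.31e-01) and -0.20 at 24 h against 8 h (limma adjusted p = 3.76e-02), against 0.08 and -0.02 after rescaling.

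Counted together, 1 of the 5 members passed at 8 h against 0 h, beside 47.0% of all tested genes, and 3 of 5 passed at 24 h against 8 h, beside 44.7%. All 5 passed at 24 h against 0 h, 2 higher and 3 lower, beside 67.9% of all tested genes. After rescaling 2 members passed at 8 h against 0 h, beside 37.3% of all tested genes, 3 at 24 h against 8 h, beside 34.6%, and 3 at 24 h against 0 h, beside 45.2%. With the 2-fold limit, none of the 5 was called by limma at 8 h against 0 h (0 members, beside 8.06% of all genes) or at 24 h against 8 h (0 members, beside 7.05%). An unadjusted p-value under 0.05 was found for 2 and 4 members in these comparisons, beside 64.3% and 60.4% of all tested genes. The median change of the 5 members was -0.14, -0.20 and -0.34 for 8 h against 0 h, 24 h against 8 h and 24 h against 0 h, against -0.18, -0.18 and -0.38 for all tested genes.

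**Figure D3:**
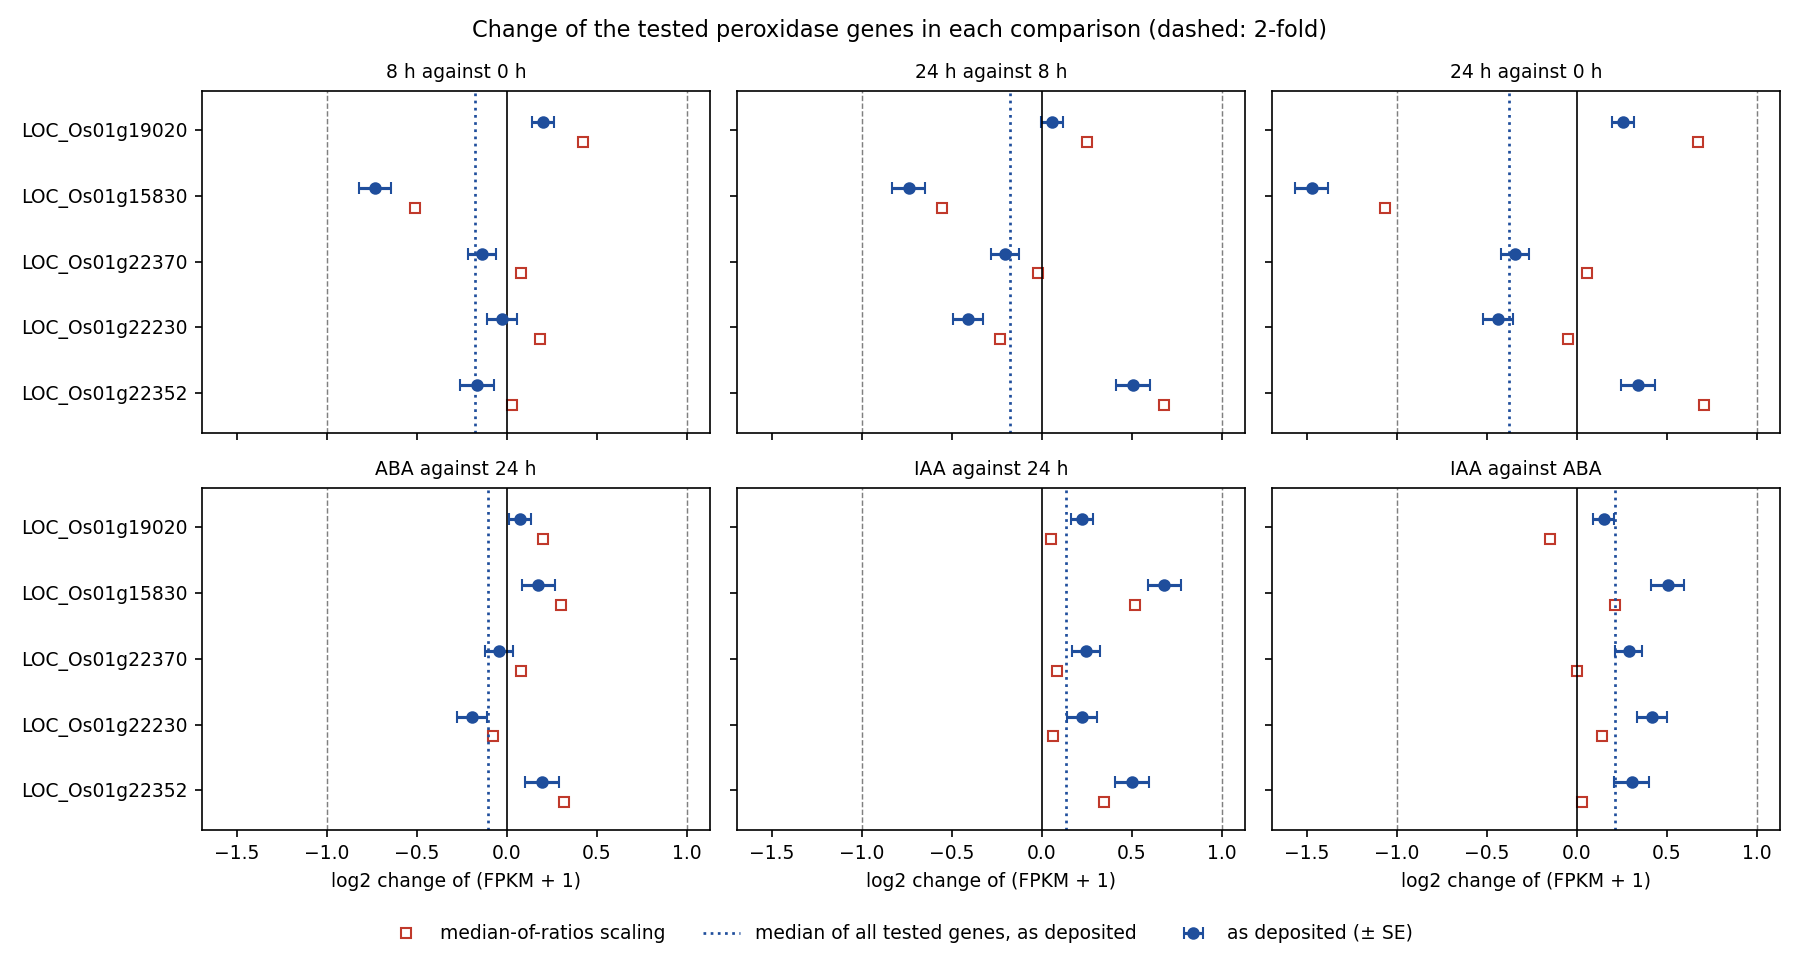
Log2 change of (FPKM + 1) (horizontal axis) of the 5 tested peroxidase genes (vertical axis) in the 6 comparisons. Filled points with bars are the values as deposited with their SE from limma, open squares are the values after rescaling, the dotted line is the median of all tested genes as deposited and the dashed lines mark 2-fold. LOC_Os01g15830 lies beyond 2-fold at 24 h against 0 h under both scalings (-1.47 and -1.06), while LOC_Os01g22370 lies on either side of no change (-0.34 and 0.06).

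After the ABA spray no tested member passed against 24 h of light. The same 24 h libraries serve as the reference for both hormones and end the light series. None of the 5 was called by limma with ABA (0 members, beside 2.01% of all tested genes) and none passed without the fold limit (0 members, beside 19.7%), with 1 member at an unadjusted p-value under 0.05, beside 47.7% of all genes. After rescaling 0 members passed in limma, beside 16.6% of all genes, and 3 were at an unadjusted p-value under 0.05, beside 40.8%. LOC_Os01g15830 was at 23.3 and 25.7 FPKM with ABA, which overlapped its values at 24 h (log2 change 0.18, standard error 0.091, limma adjusted p = 1.43e-01). It was 0.30 after rescaling (limma adjusted p = 1.86e-02), and without single libraries it ran from 0.03 to 0.33, of which the latter, without 24 h replicate 1, passed (limma adjusted p = 4.83e-03). LOC_Os01g19020 was at 131.8 and 134.0 FPKM, above both libraries at 24 h by a log2 change of 0.07 (standard error 0.060, limma adjusted p = 3.59e-01), and 0.20 after rescaling (limma adjusted p = 1.39e-02). In the third group, LOC_Os01g22352 was at 9.69 and 10.5 FPKM with ABA, above both libraries at 24 h by a log2 change of 0.20 (standard error 0.095, limma adjusted p = 1.23e-01), and 0.32 after rescaling (limma adjusted p = 2.59e-02). LOC_Os01g22230 was at 9.51 and 9.86 FPKM with ABA, below both libraries at 24 h by a log2 change of -0.19 (standard error 0.084, limma adjusted p = 8.70e-02), the lowest mean of this gene in any condition, and by -0.08 after rescaling (limma adjusted p = 4.97e-01). For LOC_Os01g22370, at 16.7 and 18.5 FPKM with ABA, the change was -0.04 (standard error 0.076, limma adjusted p = 6.71e-01) as deposited and 0.08 after rescaling (limma adjusted p = 4.27e-01), so its direction turned with the scaling.

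After the IAA spray 3 of the 5 tested members passed against 24 h of light, beside 35.9% of all tested genes, and 1 passed after rescaling, beside 33.6%. Those that passed as deposited were LOC_Os01g15830, LOC_Os01g22352 and LOC_Os01g19020, all higher with IAA. None of the 5 reached 2-fold (0 members called by limma, beside 4.76% of all genes), and all 5 were at an unadjusted p-value under 0.05, beside 56.5% of all genes. LOC_Os01g15830 was at 35.0 and 35.3 FPKM with IAA against 24.0 and 19.3 FPKM at 24 h, a log2 change of 0.68 (standard error 0.091, limma adjusted p = 6.54e-05). The groups did not overlap, and leaving out any single library gave changes from 0.53 to 0.83. After rescaling it was 0.52 and still passed (limma adjusted p = 3.73e-04), the only member to do so. The IAA libraries lay beside those at 8 h of light, at 38.3 and 35.1 FPKM, and below those at 0 h.

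LOC_Os01g22352 reached 12.3 and 13.1 FPKM with IAA, its highest level in any condition, with a log2 change from 24 h of 0.50 (standard error 0.095, limma adjusted p = 1.02e-03). It was 0.34 after rescaling (limma adjusted p = 1.07e-02) and 0.45 without IAA replicate 2 (limma adjusted p = 1.28e-02), and neither passed. LOC_Os01g19020 was also highest with IAA, at 148.5 and 146.4 FPKM. Against 24 h its log2 change was 0.22 (standard error 0.060, limma adjusted p = 8.41e-03), against 0.05 after rescaling (limma adjusted p = 4.54e-01), and it did not pass without 24 h replicate 2 (0.17), IAA replicate 1 (0.21) or IAA replicate 2 (0.23). LOC_Os01g22230, at 13.7 and 12.8 FPKM, and LOC_Os01g22370, at 21.8 and 21.5 FPKM, lay above both of their libraries at 24 h without passing. Their log2 changes were 0.22 (standard error 0.084, limma adjusted p = 4.44e-02) and 0.25 (standard error 0.076, limma adjusted p = 1.81e-02). After rescaling they were 0.06 and 0.08 (limma adjusted p = 5.45e-01 and 3.69e-01). Without 24 h replicate 1 they were 0.34 and 0.32 and passed (limma adjusted p = 4.51e-03 and 5.57e-03), and without 24 h replicate 2 they were 0.11 and 0.17 (limma adjusted p = 3.27e-01 and 1.07e-01).

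The hormone groups can also be compared with each other, since the methods give the same solvent for both. LOC_Os01g15830 (log2 change 0.51, standard error 0.091, limma adjusted p = 5.34e-04), LOC_Os01g22230 (0.42, standard error 0.084, limma adjusted p = 1.21e-03) and LOC_Os01g22370 (0.29, standard error 0.076, limma adjusted p = 6.62e-03) passed, or 3 of 5 beside 42.2% of all tested genes. None was called at 2-fold (0 members in limma, beside 5.77% of all genes), and all 5 were at an unadjusted p-value under 0.05, beside 60.6% of all genes. LOC_Os01g19020 (0.15, limma adjusted p = 5.05e-02) and LOC_Os01g22352 (0.30, limma adjusted p = 1.64e-02) did not pass. After rescaling 0 members passed in limma, beside 31.1% of all genes, and 2 were at an unadjusted p-value under 0.05, beside 53.2%. The rescaled changes were 0.21 for LOC_Os01g15830, 0.14 for LOC_Os01g22230, 0.00 for LOC_Os01g22370, 0.03 for LOC_Os01g22352 and -0.15 for LOC_Os01g19020. LOC_Os01g22230 did not pass without ABA replicate 1 (0.39) or IAA replicate 1 (0.37), and LOC_Os01g22370 did not pass without ABA replicate 1 (0.22), IAA replicate 1 (0.28) or IAA replicate 2 (0.30).

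The FPKM ratio of tandem copies within a library does not depend on the scaling between libraries, and the ratio of (FPKM + 1) tested here depends on it only through the added 1. It was used to ask whether copies of the third group kept the same proportion across the 5 conditions. The between-condition spread of each log2 ratio was set against all 945 ways to split the 10 libraries into 5 groups of 2. This was an exact permutation test over libraries, of which the smallest possible p-value is 0.00106. The limit for ratios was an adjusted p-value of 0.05, and with all 10 libraries none was under the 0.01 used for single genes. The level of LOC_Os01g22230 was 2.16 and 2.54 times that of LOC_Os01g22352 at 0 h, 2.92 and 2.36 times at 8 h, and 1.44 and 1.16 times at 24 h. With ABA it was 0.981 and 0.940 times, and with IAA 1.12 and 0.976 times, so that LOC_Os01g22230 was the more abundant copy in all 6 libraries of the light stages and lay at or below LOC_Os01g22352 in both ABA libraries and in IAA replicate 2. The condition means of this log2 ratio ran over 1.31, from 1.25 at 8 h to -0.05 with ABA, against a spread of 0.15 (SD) within conditions (exact permutation p = 0.00847, 0.0127 after Benjamini-Hochberg adjustment over 3 pairs).

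The level of LOC_Os01g22370 was 3.27 and 3.75 times that of LOC_Os01g22352 at 0 h, 4.10 and 3.20 times at 8 h, and 2.24 and 1.94 times at 24 h. It was 1.72 and 1.76 times with ABA and 1.78 and 1.64 times with IAA. The libraries of 0 and 8 h overlapped, those of ABA and IAA overlapped, and the 24 h libraries lay between these groups. The condition means of the log2 ratio ran over 0.97, against a spread of 0.13 (SD) within conditions (exact permutation p = 0.0180, 0.0180 after adjustment over 3 pairs).

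LOC_Os01g22370 and LOC_Os01g22230 stayed closest in proportion, with a level ratio between 1.35 in a library of 8 h and 1.87 in a library of ABA. The condition means of this log2 ratio ran over 0.36, from 0.44 at 8 h to 0.80 with ABA, against a spread of 0.05 (SD) within conditions (exact permutation p = 0.00423, 0.0127 after adjustment over 3 pairs). These 3 ratios are not independent, since any 2 of them give the third. In the first and second groups no pair of copies had a mean of at least 1 FPKM in each, so no ratio was tested there.

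**Figure D4:**
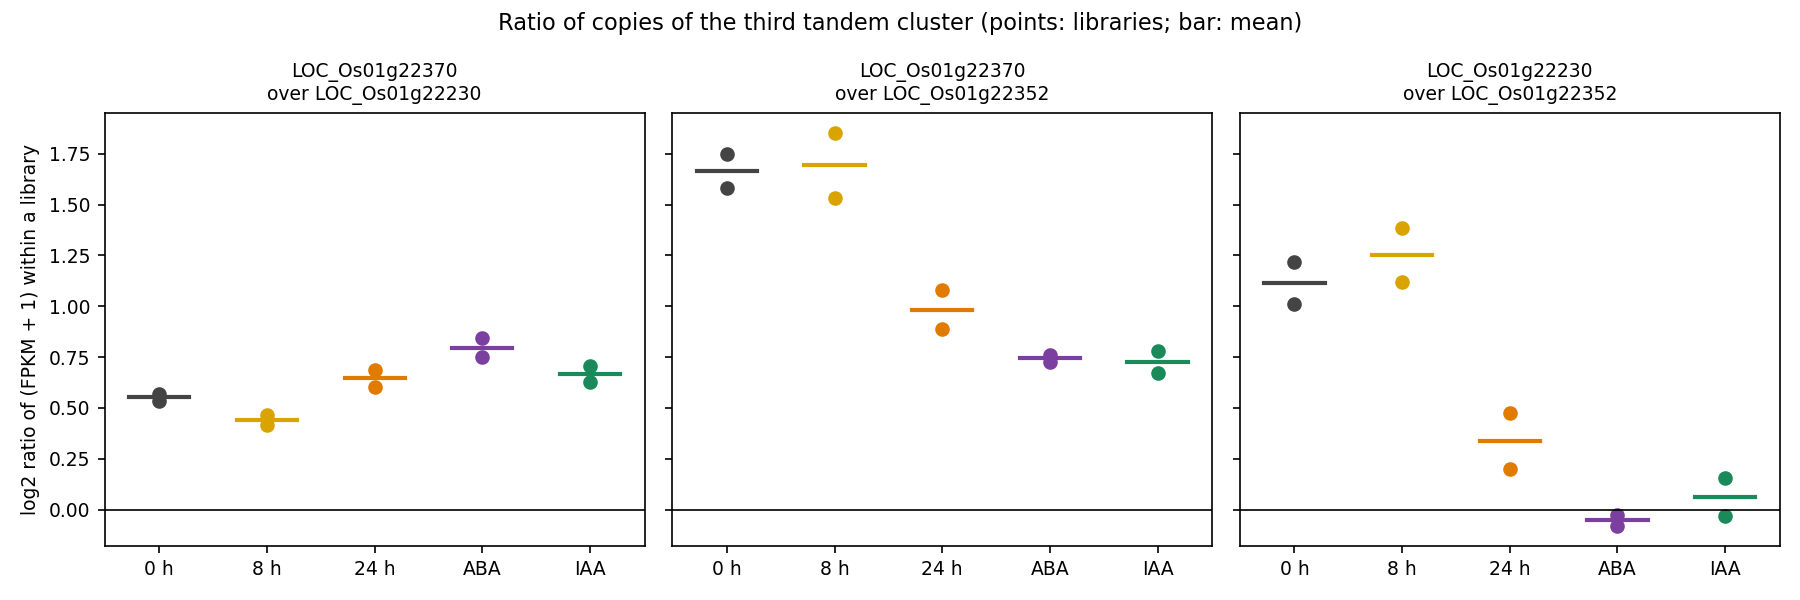
Log2 ratio of (FPKM + 1) within a library (vertical axis) for the 3 pairs of tested copies of the third group, by condition (horizontal axis). Each point is a library, each bar is the mean of 2 libraries and the line at 0 marks equal levels. The ratio of LOC_Os01g22230 over LOC_Os01g22352 was above 1.0 at 0 and 8 h and between -0.08 and 0.15 with ABA and IAA.

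The members under a mean of 1 FPKM were also not alike. LOC_Os01g15810, the neighbour of LOC_Os01g15830, was at 0.675 and 0.502 FPKM at 0 h and at most 0.196 FPKM in the other 8 libraries, of which 3 were listed at 0. Without the filter on low values its log2 change from 0 to 8 h was -0.65 (standard error 0.093, limma adjusted p = 1.58e-03 over 1791 genes) and from 0 to 24 h -0.57 (standard error 0.093, limma adjusted p = 1.61e-03), on a scale that understates the change of such low values. LOC_Os01g22336 was at 1.72 and 0.971 FPKM at 0 h, 0.491 and 0.777 FPKM at 8 h, and 0.382 and 0.359 FPKM at 24 h. With ABA it was at 1.08 and 0.456 FPKM and with IAA at 1.48 and 0.595 FPKM. Its libraries at 0 h lay above those at 8 and 24 h, but its replicates differed by up to 2.48-fold, and the change from 0 to 24 h without the filter did not pass (log2 change -0.76, standard error 0.265, limma adjusted p = 4.77e-02). LOC_Os01g22249 was highest at 24 h, at 0.875 and 0.510 FPKM, and was listed at 0 in 1 ABA and 1 IAA library. Its largest change without the filter was that with ABA, at -0.66, which did not pass (standard error 0.196, limma adjusted p = 5.31e-02).

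For the 2 most abundant members, the genes with the most similar pattern were sought by the Pearson correlation of log2(FPKM + 1) over the 10 libraries, which share their scaling and fall into 5 conditions, so the values are a description. The genes most like LOC_Os01g15830 were LOC_Os01g17150 (r = 0.990), LOC_Os01g21440 (r = 0.986) and LOC_Os01g16670 (r = 0.979). They had means of 381.5, 31.9 and 9.97 FPKM, and 107 of the tested genes had r of at least 0.9 with it. The genes most like LOC_Os01g19020 were LOC_Os01g10950 (r = 0.970), LOC_Os01g14410 (r = 0.964) and LOC_Os01g01620 (r = 0.953), with means of 51.6, 10.9 and 25.9 FPKM, and 14 of the tested genes had r of at least 0.9 with it. None of these 6 genes is a member of the 3 tandem groups. Among the tested members, LOC_Os01g22370 (r = 0.916) and LOC_Os01g22230 (r = 0.843) were like LOC_Os01g15830 on the values as deposited, and the former is among its 107 genes. After rescaling, the log2 changes from 0 to 24 h were 0.06 for LOC_Os01g22370, -0.05 for LOC_Os01g22230 and -1.06 for LOC_Os01g15830. The correlations were not recomputed on that scale. LOC_Os01g22352 was like LOC_Os01g19020 (r = 0.820). The values were negative for LOC_Os01g15830 with LOC_Os01g19020 (-0.552) and LOC_Os01g22352 (-0.428). They were also negative for LOC_Os01g19020 with LOC_Os01g22230 (-0.448) and LOC_Os01g22370 (-0.310).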

How the data were processed

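RNA-seq was performed on rice seedlings in 5 conditions with 2 replicates each. The authors trimmed reads with seqtk, aligned them to the MSU7.0 genome by Hisat2 and derived FPKM from Cufflinks. The deposited table gives FPKM per library, and its columns were matched to samples by library name. A figure of the study plots equal values as TPM, and these values cannot settle the unit. SAMtools, featureCounts and DESeq2 are also named in the submitters' notes. Since no counts were used here, DESeq2 was not run. The table used here holds 2282 complete rows of chromosome 1 up to position 21262392, and 1 incomplete row was left out. Library depth is unknown from these rows.

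The 1092 genes averaging 1 FPKM or more were fitted on log2(FPKM + 1) with limma 3.58.1 (R 4.3.3), with lmFit, eBayes with a trend and Benjamini-Hochberg adjustment over all genes tested. Called genes changed 2-fold or more at an adjusted p-value under 0.01, the limits in the methods. The fit was tested on simulated data. Ratios of tandem copies were tested by exact permutation in Python 3.11.15 with numpy 2.4.6. All members are named, with the 3 genes most like each of the 2 most abundant. Lists of other wall and peroxidase genes by annotation were not run, since the tables used here do not pair these IDs with product names. The members, lists and tests were chosen with earlier results of these data known.

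Results were recomputed with a pseudocount of 0.1, without the filter on low values, for genes averaging 5 FPKM or more, after rescaling by the median of ratios, with only the libraries being compared, with a replicate block, at an adjusted limit of 0.05 and without each library in turn. For the ratios, the light stages alone were also taken. The results without the filter for members under a mean of 1 FPKM were added after seeing the data.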

Additional observations from a re-analysis of the deposited data

How the results depend on the processing

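Under every alternative run, 1 member was called at 24 h against 0 h and 0 in each of the other 5 comparisons, with limma. Over all tested genes, the calls at 24 h against 0 h were 128 of 742 at a mean of at least 5 FPKM. They were 227 of 1092 at a pseudocount of 0.1. The direction of the tested members turned after rescaling by the median of ratios for LOC_Os01g22230 (0.18), LOC_Os01g22352 (0.0278) and LOC_Os01g22370 (0.0766) at 8 h against 0 h, for LOC_Os01g22370 at 24 h against 0 h (0.0563) and with ABA (0.0791), and for LOC_Os01g19020 between IAA and ABA (-0.15). This scaling shifts all genes of a library by construction. Directions also turned without 8 h replicate 2 for LOC_Os01g22230 at 8 h against 0 h, where values without 1 library ran from -0.0691 to 0.0129, and without 24 h replicate 1 or ABA replicate 1 for LOC_Os01g22370 with ABA, where they ran from -0.116 to 0.0291. These values did not pass. Of 300 changes of single members recomputed, 252 kept their direction and their side of the threshold, 29 no longer passed, 10 newly passed and 9 turned.

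With the libraries of each comparison alone, LOC_Os01g19020 newly passed at 8 h against 0 h (limma adjusted p = 2.62e-03). Between IAA and ABA, LOC_Os01g19020 and LOC_Os01g22352 newly passed (limma adjusted p = 8.87e-03 and 7.17e-03). At 24 h against 0 h these genes no longer passed (limma adjusted p = 2.17e-02 and 1.77e-02). Nor did LOC_Os01g19020 with IAA (limma adjusted p = 3.62e-02). Without a filter, adjustment was over 1791 genes. LOC_Os01g22352 at 24 h against 0 h then no longer passed (limma adjusted p = 1.64e-02). The same held for LOC_Os01g19020 with IAA (limma adjusted p = 2.24e-02) and LOC_Os01g22370 between IAA and ABA (limma adjusted p = 1.75e-02). The differences between replicates of 2 conditions correlated at -0.065 to 0.109, so the numbers were not taken as pairs. With a replicate block, 1 member was called at 24 h against 0 h, beside 169 of all 1092 tested genes. LOC_Os01g19020 newly passed at 8 h against 0 h in this setting (limma adjusted p = 8.73e-03).

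With the 3 light stages alone, the condition means of the log2 ratios ran over 0.20 for LOC_Os01g22370 over LOC_Os01g22230, 0.71 for LOC_Os01g22370 over LOC_Os01g22352 and 0.92 for LOC_Os01g22230 over LOC_Os01g22352. None passed 0.05 (adjusted p = 0.200 each, exact permutation), since 6 libraries allow no p-value under 0.0667. With each library left out in turn they ran over 0.31 to 0.40, 0.94 to 1.13 and 1.17 to 1.44, with adjusted p-values of 0.00847 to 0.0286. Over all tested genes, 35 in place of 22 were called with ABA at a pseudocount of 0.1, and 40 in place of 63 between IAA and ABA at a mean of at least 5 FPKM, where fewer genes were tested. After rescaling the higher and lower calls were 70 and 25 in place of 46 and 42 at 8 h against 0 h. They were 52 and 24 in place of 38 and 39 at 24 h against 8 h, and 105 and 31 in place of 76 and 93 at 24 h against 0 h. With ABA there were 26 and 4 in place of 18 and 4, and with IAA 36 and 6 in place of 51 and 1. Between IAA and ABA there were 27 and 18 in place of 53 and 10.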
